A study of Mus musculus with 8 samples.

Results

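The 40 core genes of autophagy were taken as a list of named genes, which covers initiation, nucleation, lipid supply, conjugation, the Atg8 family, cargo receptors and fusion. All 40 were found among the 31053 genes of the count tables, and all 40 passed the filter on low counts as did 12889 genes in all. They were compared between retinal pigment epithelium (RPE) of 4 control mice (Bbs8+/+) and 4 littermates without Bbs8 (Bbs8-/-), all at postnatal day 29 (P29), of the C57/Bl6 strain, untreated and of undetermined sex. Each animal gave 1 library, so n is 4 libraries per genotype wherever an error is given. The allele was described elsewhere, and the sources used here do not state which part of the gene it lacks. RPE sheets were peeled from trypsin-treated eyecups, and the preparation is bulk tissue.

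Macroautophagy encloses cytoplasm in a double membrane and delivers it to the lysosome. The Ulk1 kinase complex starts the process, the lipid kinase complex around Pik3c3 and Becn1 marks the site, Atg9 and Atg2 proteins bring in lipid, and a pair of ubiquitin-like conjugation systems attaches Atg8 proteins to the membrane, where receptors bring in cargo. RPE cells also use the conjugation machinery in LC3-associated phagocytosis, by which ingested photoreceptor outer segments are passed to lysosomes, and Rubcn acts in that route while it restrains canonical autophagy.

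Libraries held 2389835 to 3093428 counts on genes. The reads come from the 3′ end of each transcript, about 1 read per molecule, so levels are given in CPM (counts scaled to the library's total, with edgeR's TMM factors) and were not divided by transcript length. At this depth 3 counts correspond to 0.970 to 1.26 CPM before the TMM factors are applied. This is a floor for counting error only, and reads carry no molecular identifiers. The targeted gene, listed as Ttc8, had 35.6, 53.1, 59.0 and 43.2 CPM in Bbs8+/+ and 6.17, 1.79, 5.61 and 5.25 CPM in Bbs8-/- libraries (log2 fold change, log2FC, of Bbs8-/- over Bbs8+/+ -3.34, standard error 0.294, adjusted p = 2.48e-11, edgeR quasi-likelihood test). RPE markers were present at 4.22% to 4.34% of the counts in Bbs8+/+ and 5.28% to 5.66% in Bbs8-/- libraries, with no marker of the list at 0 in all libraries. Although this share was higher, only 4 of the 17 RPE markers were up-regulated, and 5 were down-regulated. The preparations also held other cells. All 16 rod markers were detected and took 6.54% to 6.73% of the counts in Bbs8+/+ against 2.90% to 3.00% in Bbs8-/- libraries, and 15 of them fell. The 15 lens markers fell, with 0.331% to 0.348% of the counts in Bbs8+/+ and 0.0479% to 0.0540% in Bbs8-/- libraries, and 5 of the 7 erythrocyte markers were down-regulated. Reactive glia markers took 0.0267% to 0.0374% of the counts in Bbs8+/+ and 0.129% to 0.138% in Bbs8-/- libraries, with 7 of 10 up-regulated. Müller glia markers took 1.11% to 1.21% in control and 1.52% to 1.62% in Bbs8-/- libraries (4 of 9 up-regulated), and cone markers 0.0161% to 0.0210% and 0.0300% to 0.0345% (5 of 8). Melanocyte markers took 0.0280% to 0.0317% and 0.0382% to 0.0407% (1 of 6), and surface epithelium markers 0.00786% to 0.0130% and 0.0205% to 0.0250% (5 of 8 tested), with Krt12 at 0 in all libraries. For these 9 of 13 lists the genotypes did not overlap (two-sided exact permutation test over libraries, p = 0.0286, the smallest that 4 against 4 allow, and adjusted p = 0.0413 over the 13, for each of the 9). The lists are not independent, since Rlbp1 is on those of RPE and Müller glia, and Vim on those of reactive and Müller glia. In bulk tissue, fewer cells of a type and less RNA per cell cannot be told apart.

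In control RPE the core genes spanned from 8.68 ± 2.86 CPM (SD, n = 4) for Epg5, a tether of autophagosomes to lysosomes, to 516 ± 23.9 CPM for Tax1bp1, a ubiquitin-binding receptor. Tax1bp1 lay above every other core gene in every control library. Calcoco1, a receptor for endoplasmic reticulum and Golgi cargo, followed with 261 ± 36.0 CPM, then Map1lc3a with 252 ± 15.0, Gabarapl1 with 232 ± 45.1 and Wipi1 with 212 ± 14.2 CPM, and the ranges of neighbours in this order overlapped. Wipi1 binds the phosphoinositide made by the Pik3c3 complex, and its lowest control library was above the highest of the next gene, Sqstm1 (176 ± 11.7 CPM). Below Rb1cc1, the scaffold of the Ulk1 complex with 124 ± 12.7 CPM, the remaining 30 genes lay under 90 CPM in every control library and formed a continuous series in which no gene was clear of its next neighbour. Summed over the 40 genes, transcripts came to 3026 to 3272 CPM in Bbs8+/+ and 3037 to 3152 CPM in Bbs8-/- libraries, which overlap.

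In the Bbs8-/- preparations 1 of the 40 genes was higher, Map1lc3a, and 1 lower, Gabarapl1 (adjusted p under 0.05, edgeR quasi-likelihood test), which is 5.0% of the list. Over all 12889 genes tested, 1581 were called, or 12.3%, and among the 8186 genes whose mean level lay within that of the core genes (10.3 to 546 CPM), 16.4% were called. The share among the core genes was below both, and no test was made of the list as a whole. At an unadjusted p under 0.05, 5 core genes were higher and 5 lower (25.0%, against 23.4% of all genes). For 7 core genes (17.5%) every library of one genotype lay above all of the other, against 16.1% of all genes. The log2FC values had a median of -0.06, against 0.02 over all genes, with 17 genes above 0 and 23 below. This balance depended on scaling, since with library size alone 21 were above 0 and 19 below, with a median of 0.03. The median size of a log2FC was 0.24 for the core genes and 0.32 for all genes.

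**Figure D1:**
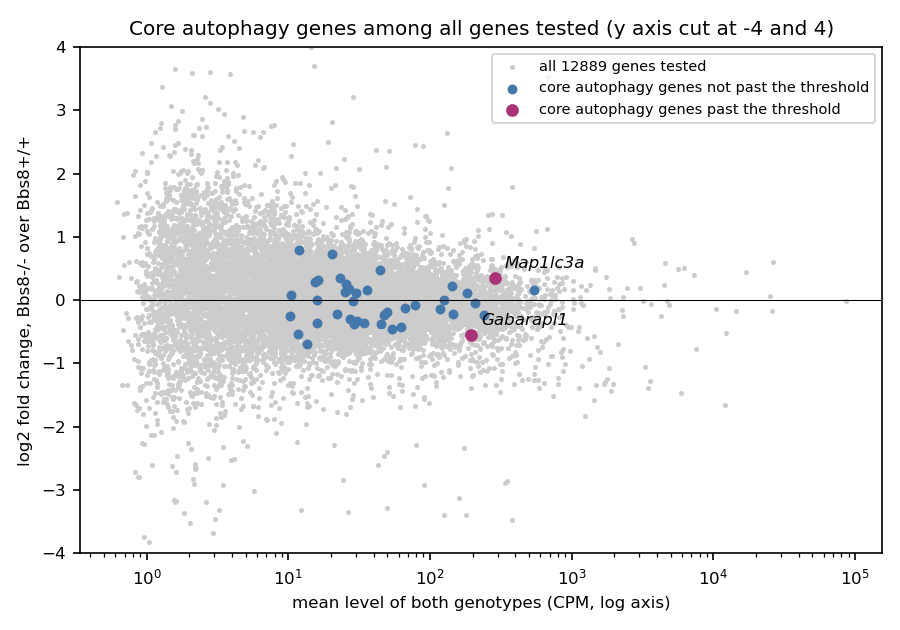
Mean level of both genotypes in CPM (log axis) against the log2FC of Bbs8-/- over Bbs8+/+ for 12889 genes (grey), with the core autophagy genes in colour. The 40 core genes lie between -0.69 and 0.79, 2 of them are past the adjusted p of 0.05, and 28 other genes fall outside the axis limits of -4 and 4.

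The size of change that the data could exclude differed between genes. For 35 of the 40 genes the 95% interval of the log2FC lay within a 2-fold change in either direction, and for 15 it lay within a 1.5-fold change. The 5 genes whose interval reached beyond 2-fold were Atg2b, Atg9a, Atg4a, Atg4c and Epg5, all with a mean below 26 CPM in either genotype. A core gene outside the threshold is therefore not shown to be equal between genotypes.

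**Figure D2:**
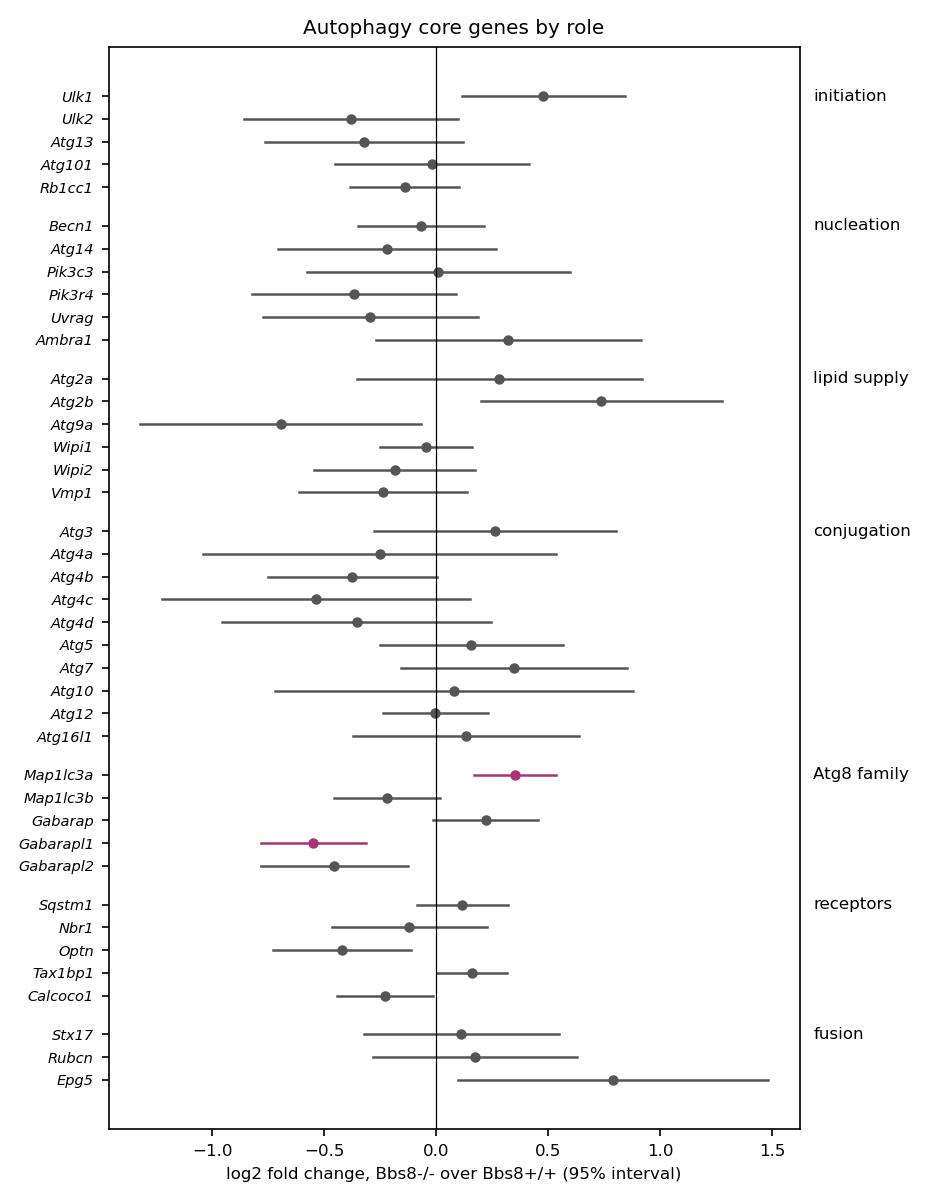
The log2FC of Bbs8-/- over Bbs8+/+ (x axis, point) with its 95% interval (line) for the 40 core autophagy genes, ordered by role. Intervals of the called genes, Map1lc3a and Gabarapl1, are coloured and lie on opposite sides of 0.

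Both called genes belong to the Atg8 family, whose 5 members here are the ubiquitin-like proteins that are joined to the growing membrane and bind receptors. Map1lc3a (ENSMUSG00000027602; chr2:155276297-155278073, forward strand, GRCm38) encodes an LC3 protein. It had 259, 247, 233 and 267.3 CPM in the Bbs8+/+ libraries and 345, 324, 311 and 303 CPM in the Bbs8-/- libraries. Every Bbs8-/- library was above every control. The means were 252 ± 15.0 and 321 ± 18.2 CPM (SD, n = 4), a 1.27-fold rise with a log2FC of 0.35 (standard error 0.0902, 95% interval 0.17 to 0.53, adjusted p = 0.00637).

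Gabarapl1 (ENSMUSG00000030161; chr6:129533160-129542346, forward strand) encodes a member of the GABARAP subfamily. It had 293, 214, 187 and 235 CPM in the Bbs8+/+ libraries and 173, 138, 156 and 168 CPM in the Bbs8-/- libraries. All 4 Bbs8-/- libraries were below the controls, which spread widely, with replicate 1 highest. The means were 232 ± 45.1 and 159 ± 15.8 CPM (SD, n = 4), with a log2FC of -0.55 (standard error 0.116, 95% interval -0.78 to -0.31, adjusted p = 7.29e-04). Without control replicate 1 the log2FC was -0.42 and remained past the threshold (adjusted p = 0.00282). Gabarapl1 fell beside the share of counts on rod, lens and erythrocyte markers. Map1lc3a rose beside the shares on RPE, Müller glia, reactive glia, cone, melanocyte and surface epithelium markers. Of the single RPE markers, however, 4 were up-regulated and 5 down-regulated. The part of these cells in either change was not tested. With TMM factors computed without rod, cone, lens and erythrocyte genes, both genes were called in the same direction (adjusted p = 0.00677 for Map1lc3a and 6.91e-04 for Gabarapl1). This setting changes the scaling alone and leaves the counts as they are, so it cannot show the part of these cells.

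The other Atg8 genes did not pass the threshold. Gabarapl2 had 56.0, 63.1, 69.2 and 62.9 CPM in Bbs8+/+ and 43.2, 42.7, 44.1 and 52.9 CPM in Bbs8-/- libraries. The genotypes did not overlap, with a log2FC of -0.46 (standard error 0.162, adjusted p = 0.0599). It passed without control replicate 1 (adjusted p = 0.0442) or Bbs8-/- replicate 4 (adjusted p = 0.0436), and with no other library left out (adjusted p up to 0.161). Gabarap had 108 to 145 CPM in control and 136 to 169 CPM in Bbs8-/- libraries, which overlapped (log2FC 0.22, adjusted p = 0.254). Map1lc3b, the LC3 gene whose protein is the usual marker of autophagosomes, had 147 to 177 CPM in control and 113 to 154 CPM in Bbs8-/- libraries (log2FC -0.22, adjusted p = 0.258). The 5 genes together came to 781 to 893 CPM in control and 786 to 851 CPM in Bbs8-/- libraries, which overlap.

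Within this sum the make-up of the family differed. Map1lc3a made up 29.0% to 31.1% of the Atg8 transcripts in Bbs8+/+ libraries and 37.5% to 41.2% in Bbs8-/- libraries. Gabarapl1 made up 23.9% to 32.8% and 17.5% to 20.9%. The ratio of Map1lc3a to Gabarapl1 was 0.884, 1.15, 1.25 and 1.14 in control libraries and 1.99, 2.35, 1.99 and 1.80 in Bbs8-/- libraries. These genes were singled out for opposite calls, so the ratio is a description and was given no test.

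**Figure D3:**
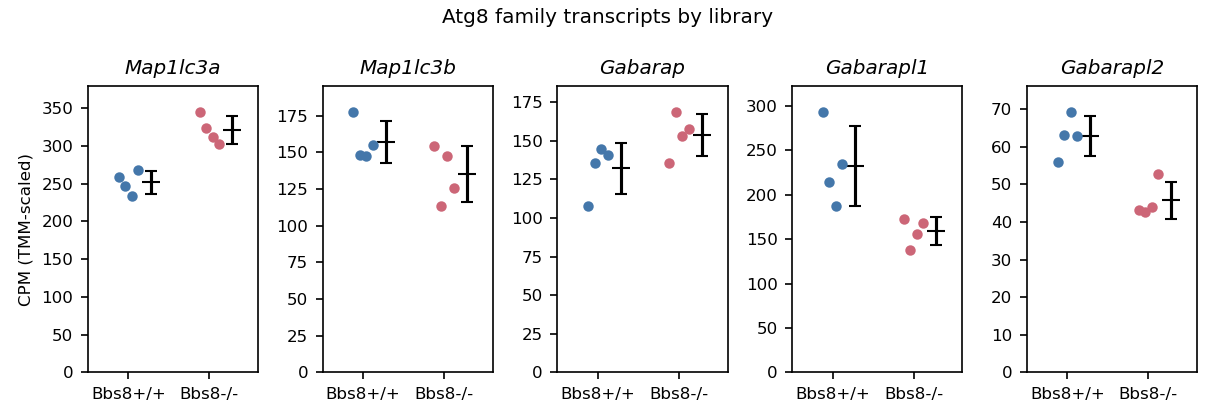
Level of the 5 Atg8 family transcripts in CPM (y axes start at 0) in each library, with points for the 4 libraries of a genotype and bars for the mean ± SD. The genotypes are apart for Map1lc3a (higher in Bbs8-/-), Gabarapl1 and Gabarapl2 (lower) and overlap for Map1lc3b and Gabarap.

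None of the 5 initiation genes passed the threshold. Ulk1, the kinase that integrates nutrient and energy signals, had 39.7, 34.7, 36.9 and 38.0 CPM in Bbs8+/+ and 50.2, 53.5, 63.3 and 41.3 CPM in Bbs8-/- libraries. The genotypes did not overlap, although Bbs8-/- replicate 4 came close to the controls, and the log2FC was 0.48 (standard error 0.180, adjusted p = 0.0794). Ulk1 passed the threshold without that library (adjusted p = 0.0399) and when libraries were scaled by size alone (adjusted p = 0.0296). With any other library left out it did not pass (adjusted p up to 0.249). Ulk2, its paralogue, overlapped between genotypes and had a log2FC of the other sign (-0.38, adjusted p = 0.355). Of the subunits that hold the kinase, Atg13 had a log2FC of -0.32, Rb1cc1 of -0.14 and Atg101 of -0.02.

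The 6 nucleation genes overlapped between genotypes. Becn1, the scaffold of the lipid kinase complex, had 71.7 to 89.9 CPM in control and 72.4 to 83.3 CPM in Bbs8-/- libraries, a log2FC of -0.07 with a 95% interval of -0.35 to 0.21. Pik3c3, the kinase itself, had 16.01 ± 4.10 and 16.1 ± 2.72 CPM (SD, n = 4). Its regulatory subunit Pik3r4 had a log2FC of -0.37 (adjusted p = 0.347). The subunits that set the complex apart, Atg14 for autophagosome formation and Uvrag for endosomes, had -0.22 and -0.29, and Ambra1, which binds Becn1 and ubiquitin ligases, had 0.32.

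Among the 6 genes of lipid supply, the lipid transfer protein Atg2b and the scramblase Atg9a had the largest differences. Atg2b had 13.9, 14.2, 19.2 and 13.4 CPM in Bbs8+/+ and 32.9, 24.4, 17.2 and 26.6 CPM in Bbs8-/- libraries. Bbs8-/- replicate 3 lay below the highest control, and the log2FC of 0.74 (standard error 0.265) did not pass the threshold (adjusted p = 0.0629). Without that library it was 0.88 and passed (adjusted p = 0.0293), as it did with library size alone (adjusted p = 0.0331), a minimum of 5 CPM (adjusted p = 0.0493) or the likelihood ratio test (adjusted p = 0.0496). Leaving out any other library gave no call for Atg2b (adjusted p up to 0.2). Atg9a had 20.01, 16.1, 18.4 and 13.0 CPM in control and 8.64, 8.97, 13.2 and 10.9 CPM in Bbs8-/- libraries, with a single pair of libraries overlapping (log2FC -0.69, adjusted p = 0.156). Atg2a, the paralogue of Atg2b, had 0.28 (adjusted p = 0.661). Wipi1 had 192 to 223 CPM in control and 182 to 229 CPM in Bbs8-/- libraries, and its 95% interval of -0.25 to 0.16 was among the narrowest. Its paralogue Wipi2, which recruits Atg16l1, and the scramblase Vmp1 had log2FC values of -0.19 and -0.24.

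The 10 conjugation genes held no call and no gene whose genotypes were apart. Atg12, the ubiquitin-like protein joined to Atg5, was the most abundant, with 111 to 135 CPM in control and 114 to 131 CPM in Bbs8-/- libraries, and its 95% interval ran from -0.24 to 0.23. The E1-like enzyme Atg7 had a log2FC of 0.35 (adjusted p = 0.441), and the E2-like enzymes Atg3 and Atg10 had 0.26 and 0.08. Atg5 and Atg16l1, which with Atg12 form the ligase, had 0.16 and 0.13. The 4 Atg4 proteases, which trim Atg8 proteins and release them from membranes, all had values below 0, from -0.54 for Atg4c to -0.25 for Atg4a, with Atg4b at -0.37 (adjusted p = 0.221) and Atg4d at -0.36. Without control replicate 1 the value of Atg4a was 0.03. None of the 4 was called with any alternative.

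Of the 5 receptors, none passed the threshold. Optn, a receptor of ubiquitinated cargo including mitochondria, had 68.2, 72.9, 74.5 and 70.7 CPM in Bbs8+/+ and 46.9, 54.9, 62.1 and 49.7 CPM in Bbs8-/- libraries. All Bbs8-/- libraries were below the controls, with a log2FC of -0.42 (standard error 0.152, adjusted p = 0.0643). Without Bbs8-/- replicate 3 it was -0.50 and passed (adjusted p = 0.0431), and with any other library left out it did not (adjusted p up to 0.148). Tax1bp1 had 528, 481, 523 and 533 CPM in control and 604, 547, 583 and 570 CPM in Bbs8-/- libraries. The genotypes were apart by a small margin, 1.12-fold (log2FC 0.16, adjusted p = 0.206), and with library size alone the value was 0.25 and passed (adjusted p = 0.0236). Calcoco1 had a log2FC of -0.23 (adjusted p = 0.171), with 210 to 289 CPM in control and 189 to 246 CPM in Bbs8-/- libraries. It passed without control replicate 3 (-0.32, adjusted p = 0.0408), but not with any other library left out (adjusted p up to 0.431). Sqstm1, the p62 receptor whose protein accumulates when autophagy is blocked, had 161 to 186 CPM and 180 to 199 CPM, a log2FC of 0.12 with a 95% interval of -0.09 to 0.32. Nbr1, its partner, had -0.12 (adjusted p = 0.751).

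The 3 genes of fusion and its control had values above 0 and were not called. Epg5 had 5.09, 11.6, 10.2 and 7.82 CPM in Bbs8+/+ and 13.98, 13.6, 13.6 and 18.6 CPM in Bbs8-/- libraries. The genotypes were apart, on 15 to 53 counts per library, and the log2FC of 0.79 (standard error 0.341) did not pass after adjustment (adjusted p = 0.141). Stx17, the autophagosomal SNARE, had 0.11 with a 95% interval of -0.32 to 0.55, and Rubcn had 0.17 with an interval of -0.28 to 0.63.

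**Figure D4:**
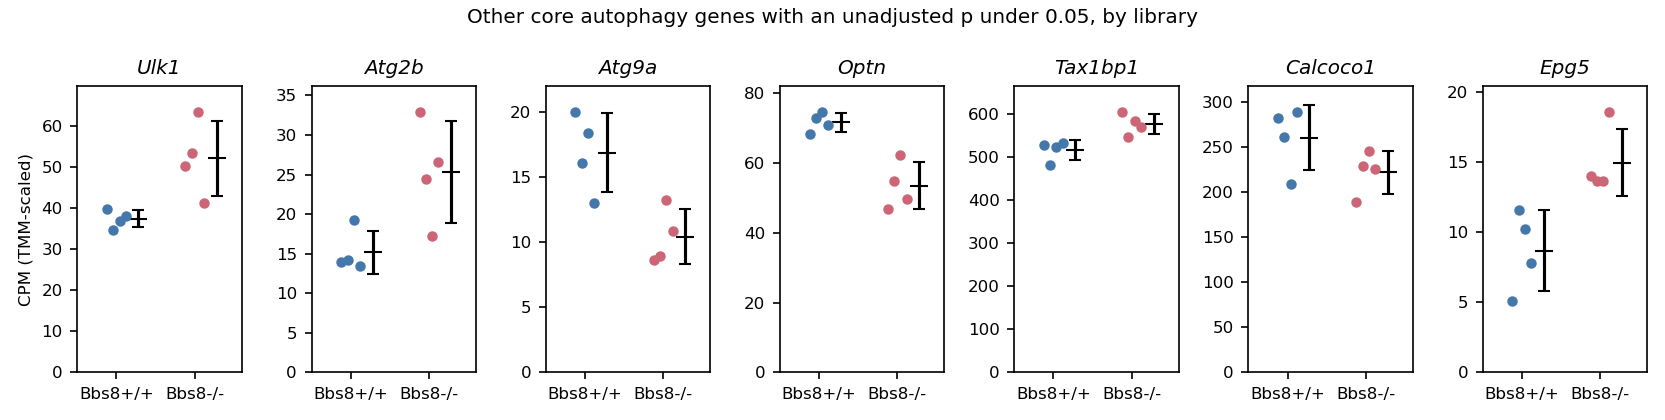
Levels in CPM (y axes start at 0) by library for the 7 core genes outside the Atg8 family with an unadjusted p under 0.05, with the mean ± SD of 4 libraries per genotype. Ulk1, Tax1bp1 and Epg5 are apart upwards in Bbs8-/-, Optn is apart downwards, and Atg2b, Atg9a and Calcoco1 overlap.

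Counting could affect some of these values. None of the 40 genes shared exons with another counted gene on its own strand, and 11 shared exons with a counted gene on the opposite strand, among them Map1lc3b, Sqstm1 and Optn. The library kit keeps strand, and the strand setting of the counter is not given in the sources used here. Of the sequence words of 50 bases in the last 500 bases of the coding transcripts, none was found in a transcript of another gene for 33 of the 40 genes, Map1lc3a and Gabarapl1 included. The share was 57.8% for Atg9a (all with Gm29253), 43.5% for Atg4a (with Atg4a-ps) and 16.8% for Map1lc3b, and reads from such stretches may be lost as not uniquely mapped.

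Genes of autophagy and lysosomes share an element bound by Tfeb and its relatives, whose core is CACGTG. The letters CACGTG, which read the same on both strands, were searched in RefSeq promoters of GRCm38.p6, windows of 300 bases that run from 250 before to 50 after the transcript start. Of 33 core genes with a promoter entry, 5 (15.2%) held the core, against 8.09% of all 27025 genes with one. The match is a description of letters. The stretches around the core are shown for all 5, 4 ATG genes and Rubcn, to set them beside the measured changes, with the core in capitals, 5′ to 3′ on the gene's strand. None of the 5 was called.
Atg3, chromosome 16, 45158723 to 45158752, forward strand: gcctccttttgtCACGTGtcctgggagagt
Atg3, chromosome 16, 45158746 to 45158775, forward strand: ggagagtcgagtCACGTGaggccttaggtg
Atg5, chromosome 10, 44268313 to 44268342, forward strand: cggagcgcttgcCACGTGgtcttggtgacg
Atg7, chromosome 6, 114670952 to 114670981, forward strand: catattggtggtCACGTGtgcagtaagtga
Atg14, chromosome 14, 47568418 to 47568447, reverse strand: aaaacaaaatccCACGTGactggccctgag
Rubcn, chromosome 16, 32868437 to 32868466, reverse strand: cgcctagcacatCACGTGtacccaggttag
The cores start 94 and 71 bases before the start of Atg3, 14 before that of Atg5, 132 before that of Atg7, 88 before that of Rubcn and 1 before that of Atg14. These are RefSeq starts, and those of Atg7, Rubcn and Atg14 lie well inside the Ensembl gene rather than at its 5′ end. The log2FC values of the genes that carry the core were 0.26 for Atg3, 0.16 for Atg5, 0.35 for Atg7 and 0.17 for Rubcn, and -0.22 for Atg14. The Gabarapl1 window held no match, and Map1lc3a had no entry.

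Around the core genes, 112 other genes of the pathway were listed (nutrient signalling, transcription factors, accessory factors, other receptors and other fusion factors), of which 105 were tested. Among the latter, 3 rose and 6 fell, 8.57% against the 12.3% of all genes. The accessory factors (22 tested) and the other receptors (18 tested) held no call in the edgeR test. At an unadjusted p under 0.05 in that test, 10 of the 105 genes were higher and 16 lower, where 23.4% of all genes were past it. Of these, 4 higher and 8 lower genes belonged to signalling, 3 and 3 to transcription, and 2 and 3 to fusion. The accessory factors held 0 and 1, and the other receptors 1 and 1. The calls among the related genes lie beside the same differences in all 9 marker lists, whose part in them was not tested.

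Of 31 genes of nutrient signalling tested, 2 rose and 2 fell, where 12.3% of all genes were called in either direction. No test was made of this list as a whole. Rragd, a Rag GTPase that is itself a target of Tfeb and Mitf, had 72.9, 99.8, 87.2 and 78.2 CPM in Bbs8+/+ and 135, 121, 119 and 119 CPM in Bbs8-/- libraries, and the genotypes did not overlap (log2FC 0.55, standard error 0.128, adjusted p = 0.00223). Lamtor4, a subunit of the Ragulator complex that anchors the Rag GTPases, had 90.2, 108, 94.6 and 108 CPM in control and 47.7, 63.5, 67.3 and 71.8 CPM in Bbs8-/- libraries, all lower (-0.68, standard error 0.144, adjusted p = 7.88e-04). Deptor, an inhibitor of mTOR, had 51.5, 34.0, 38.9 and 31.3 CPM in control and 26.7, 14.7, 20.4 and 17.2 CPM in Bbs8-/- libraries, again without overlap (-0.99, standard error 0.233, adjusted p = 0.00272). These 3 genes were called with every alternative run. Sesn3, a stress-induced regulator upstream of mTORC1, rose from 230 ± 18.6 to 280 ± 18.4 CPM (SD, n = 4, log2FC 0.29, adjusted p = 0.0401) and lost its call without any 1 of 6 libraries, with adjusted p up to 0.116 without control replicate 4. It also lost it with no filter on low counts (adjusted p = 0.0505), the likelihood ratio test (adjusted p = 0.0647) and the replicate block (adjusted p = 0.0631). Mtor, likewise named after its value was seen, had -0.44 and was not past the threshold (adjusted p = 0.0785).

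Among 11 transcription factors tested, 2 fell and none rose, where 12.3% of all genes were called, and the list as a whole was not tested. Foxo3, an activator of autophagy genes, had 77.7, 88.6, 81.1 and 72.2 CPM in control and 53.1, 49.5, 68.5 and 59.9 CPM in Bbs8-/- libraries, with no overlap (log2FC -0.47, standard error 0.150, adjusted p = 0.0325). Atf4, which induces autophagy genes under amino acid and endoplasmic reticulum stress, fell from 313 ± 35.1 to 257 ± 16.7 CPM (SD, n = 4, -0.29, adjusted p = 0.0379). Both lost their call when libraries were scaled by size alone (adjusted p = 0.0987 and 0.181), and Atf4 also with the likelihood ratio test (adjusted p = 0.0648) and the replicate block (adjusted p = 0.0505). Foxo3 also lost it without control replicate 2 or 3 or Bbs8-/- replicate 1, 2 or 4, and Atf4 without any library but control replicate 3 and Bbs8-/- replicate 1. Tfeb, at 6.03 ± 1.14 and 8.48 ± 3.83 CPM (SD, n = 4), Tfe3 and Mitf, named here after their values were seen, were not called (adjusted p = 0.569, 0.594 and 0.133).

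Of 23 other fusion genes tested, 1 rose and 2 fell, where 12.3% of all genes were called, and again the list was not tested. Pip4k2a, a phosphoinositide kinase that acts in autophagosome fusion, had 28.1, 20.6, 18.02 and 14.9 CPM in control and 9.87, 8.61, 8.02 and 9.45 CPM in Bbs8-/- libraries, all lower (log2FC -1.18, standard error 0.306, adjusted p = 0.00653). Without control replicate 1 it was -0.98 (adjusted p = 0.0535). Vamp8, the lysosomal SNARE that pairs with Stx17, rose from 217 ± 26.2 to 271 ± 19.4 CPM (SD, n = 4, 0.32, adjusted p = 0.0282), and Vps33a, a subunit of the HOPS tether, fell from 38.1 ± 4.40 to 22.9 ± 8.97 CPM (-0.74, adjusted p = 0.0401). Vamp8 was not past the threshold without control replicate 2 or 3 or Bbs8-/- replicate 3 or 4 (adjusted p up to 0.148). Vps33a was not past it without control replicate 1, 2 or 4 or Bbs8-/- replicate 3 or 4, the last of which, at 10.2 CPM, was far below the others (without it -0.49, adjusted p = 0.173). It also lost its call with library size alone (adjusted p = 0.0766) and with DESeq2 (adjusted p = 0.0531).

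**Figure D5:**
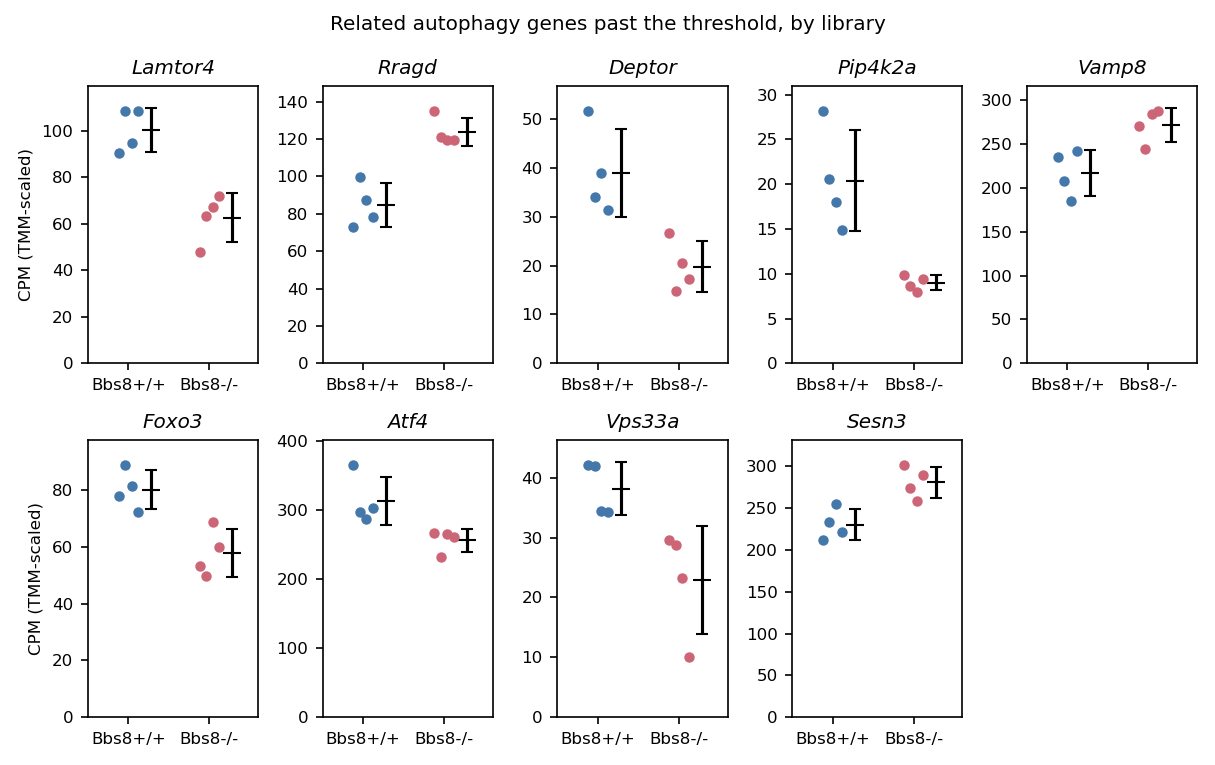
Levels in CPM (y axes start at 0) by library for the 9 related autophagy genes past the adjusted p of 0.05, with the mean ± SD of 4 libraries per genotype. Rragd, Vamp8 and Sesn3 are higher and Lamtor4, Deptor, Pip4k2a, Foxo3, Atf4 and Vps33a lower in Bbs8-/-, without overlap between genotypes.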

How the data were processed

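RPE was isolated by the authors at P29 from 4 Bbs8+/+ and 4 Bbs8-/- mice, and 30 ng of RNA per animal went into QuantSeq FWD 3′ libraries. The authors trimmed the reads with BBDuk (BBMap suite 37.31), aligned them with STAR 2.6.0a3 to mm10 with Ensembl release 93 gene models, and deposited raw counts of uniquely mapped reads per gene from htseq-count. Groups and replicate numbers came from the titles of the samples. Of 31053 identifiers, 30934 had a symbol in the GRCm38 annotation. Rows that name no gene stayed out of all library sizes, and reads without a feature made up 17.0% to 20.6% of a library, reads that did not map uniquely 32.8% to 34.5%.

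Counts were analysed with edgeR 4.0.16 in R 4.3.3. A gene was kept where 4 or more libraries reached 1 CPM (12889 genes), libraries were scaled by TMM, and genotypes were compared with the two-sided quasi-likelihood F test, adjusted over all 12889 genes with the Benjamini-Hochberg method (threshold 0.05). Standard errors and 95% intervals were derived from the F statistic. The test was checked on simulated data in which a small set of genes changed, up and down alike. The simulation held no shift in marker shares like that seen here, so it does not cover that setting. Shares of counts on marker lists were compared with two-sided exact permutation tests over libraries. The core genes and all gene lists were chosen with earlier results of these data known. The genes named are Ttc8, the 40 core genes and, of each list of related genes, at most 4 genes past the threshold in order of adjusted p, and genes outside this rule are named as such. Alternatives were DESeq2 1.42.0, library size alone, TMM factors that leave out the marker genes of rods, cones, lens and erythrocytes, a minimum of 5 CPM or no minimum, the likelihood ratio test, a replicate block, and each library left out in turn. Of 112 related genes listed, 109 were matched and the other genes were not analysed here. The P11 libraries, the proteome and the imaging were not analysed here.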

Additional observations from a re-analysis of the deposited data

Results flagged for a closer look

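In 10 of 126 groups of 4 libraries, 1 library stood apart from the other 3 by Dixon's criterion, which flags about 1 in 20 groups by chance. The library was a control for Uvrag (36.9 CPM in replicate 3, against 26.9 to 28.5 in the others) and Atg2b (19.2 CPM in replicate 3, against 13.4 to 14.2). It was a Bbs8-/- library for Atg10 (19.7 CPM in replicate 2, against 6.65 to 8.23), Nbr1 (94.4 CPM in replicate 2, against 51.7 to 56.4), Atf4 (232 CPM in replicate 2, against 262 to 266.9) and Stx17 (26.5 CPM in replicate 3, against 32.7 to 33.6). Bbs8-/- replicate 4 stood apart for Gabarapl2 (52.9 CPM, against 42.7 to 44.1), Epg5 (18.6 CPM, against 13.6 to 13.98) and the share of counts on erythrocyte markers (0.208%, against 0.223% to 0.226%). Bbs8-/- replicate 1 did so for Rragd (134.9 CPM, against 119 to 121). The cause was not tested.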

How the results depend on the processing

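Map1lc3a and Gabarapl1 were called in the same direction with all 15 alternatives, with log2 fold changes of 0.31 to 0.44 and -0.65 to -0.42. Of the other 38 core genes, 32 were called with none and 6 with some. Core genes up-regulated numbered 4 with library size alone, 2 with a minimum of 5 CPM and 2 with the likelihood ratio test, against 1. Related genes up-regulated and down-regulated numbered 8 and 3 with library size alone, against 3 and 6. The median over all genes of each gene's shift in log2FC under that scaling was 0.0891. It left 1008 higher and 654 lower genes in all, against 704 and 877. With each library left out in turn, core genes numbered 1 to 2 up-regulated and 1 to 2 down-regulated, related genes 1 to 4 and 3 to 7, and all genes 553 to 645 and 689 to 847, the median of the core genes ran from -0.13 to -0.04, and 9 to 10 of 13 marker lists did not overlap. Values near 0 changed sign without passing the threshold. With library size alone they were 0.07 for Atg101, 0.02 for Becn1, 0.04 for Wipi1 and 0.09 for Atg12, which was 0.01 with a minimum of 5 CPM and 8.11e-04 with DESeq2. With 1 library left out, the ranges were -0.08 to 0.05 for Atg101, -0.15 to 0.12 for Pik3c3, -0.10 to 0.01 for Wipi1, -0.60 to 0.03 for Atg4a, -0.41 to 0.28 for Atg10, -0.06 to 0.04 for Atg12 and -0.03 to 0.28 for Atg16l1. Same-numbered libraries did not deviate together (correlations -0.0285 to 0.00859, and 1 of 4 control libraries correlated best with its own number). No pairing by number was seen, although a weak one could be missed. With the replicate block 1 core gene was up- and 1 down-regulated, and Sesn3 (adjusted p = 0.0631) and Atf4 (adjusted p = 0.0505) lost their calls. At this depth 3 counts correspond to 0.970 to 1.26 CPM before the TMM factors are applied.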
